A study of Mus musculus with 185 samples.

Results

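The genes described here are 9 members that mark monocytes and macrophages, followed in Langerhans cells (LCs), the antigen-presenting phagocytes of the epidermis. They are Lyz2, Lyz1, Ly6c2, Plac8, C1qa, C1qb, C1qc, Adgre1 and Cd68, chosen by name from the 45661 genes of the count table. The cells came from bone marrow chimeras (BMC) in which wild-type CD45.2 marrow had been given to irradiated Cd207DTR CD45.1 mice, and which then received 5 ng of diphtheria toxin (DT) per gram, 2 months ahead of sorting. Monocyte-derived LCs (moLCs) carried the donor allotype and no DTR allele, whereas embryonic LCs (eLCs) were host cells with the Cd207DTR allele that had survived the toxin, and both had been exposed to the same DT. Single cells were index-sorted on 2 plates as lineage-negative, CD11c+, CD11b+, CD24+, MHCII+ and CD326+ and sequenced with a full-length Smart-seq protocol without molecular identifiers. Donor allotype thus marks cells that grew from transplanted marrow. No animal and no age is given for any cell.

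The question was how much of a monocyte or macrophage programme is read in LCs of either origin. Circulating classical monocytes are known for Ly6c2, a surface protein anchored by a lipid tail, and Plac8, a small cysteine-rich protein, and they lose both as they settle in a tissue. Lyz2 encodes lysozyme M, a wall-degrading enzyme of bacteria-eating phagocytes, and its neighbour Lyz1 encodes lysozyme P, best known from intestinal Paneth cells. C1qa, C1qb and C1qc encode the A, B and C chains of C1q, the recognition unit that starts the classical complement pathway and that tissue macrophages secrete. Adgre1 encodes F4/80, an adhesion receptor used to stain mouse macrophages, and Cd68 encodes macrosialin, a glycoprotein of endosomes and lysosomes.

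Of 185 cells, 182 had at most 5% of their reads on mitochondrial genes and were kept. These were 67 moLCs on plate 1 and 36 on plate 2, and 79 eLCs, of which 29 were on plate 1 and 50 on plate 2. Totals ran from 432614 to 4525429 reads per cell, the median moLC having 2948819 and the median eLC 2779080, and a read was found for 4026 and 4488 genes in the median cell. Every cell had reads of H2-Ab1 and Cd74, and 181 of 182 had Cd207. Of 7 classical monocyte markers, 4 were at 0 in all cells, Chil3, F13a1 and Ms4a3 among them, and the summed level of the list, which holds Ly6c2, was 0 CPM (reads of a gene per 1000000 reads) in the median cell and at most 24.9 CPM. Of 7 dermal macrophage markers, 5 were at 0 (Cd163, Lyve1, Folr2, Cbr2 and F13a1), and the others, Mrc1 and Pf4, were read in 9 moLCs and 6 eLCs. Their summed level was 32.8 CPM in moLCs and 3.81 in eLCs, with 48.7 and 1.32 CPM on plate 1 and 3.03 and 5.50 CPM on plate 2. The median cell was at 0 in either origin, and the highest moLC, on plate 1, had 3553 CPM, against 181 CPM in the highest eLC. Keratinocyte markers were read in 29 moLCs and 12 eLCs, with summed levels of 28.6 and 5.63 CPM. Since each origin is 1 sample, no test between origins is possible, and all intervals below are 95% intervals that cover counting error only. Those on summed reads take every read as a separate count, although no molecular identifiers were used. They therefore do not cover the counting error of molecules or the spread among cells.

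The 9 members split into 3 sets by how they were read. Cd68, Adgre1 and C1qa were read in most cells of either origin, C1qb, C1qc and Lyz2 in a smaller share, and the monocyte genes Ly6c2 and Plac8 were all but absent. Lyz1 had few reads, all in cells that also had Lyz2. Per kilobase of exon, the order in moLCs was Cd68 (292 CPM per kb), C1qa (182), C1qb (140), Adgre1 (58.3), Lyz2 (57.7), C1qc (51.4) and Lyz1 (0.153). In eLCs it was Cd68 (285), C1qa (224), C1qb (138), C1qc (51.4), Adgre1 (42.6), Lyz2 (25.8) and Lyz1 (0.0654). Cd68, the highest, stood above C1qa on both plates in either origin except for plate 1 in eLCs, where C1qa was at 273 and Cd68 at 262 CPM per kb. Adgre1, Lyz2 and C1qc are not separated in moLCs, since C1qc lay at 31.7 on plate 1 and 88.1 CPM per kb on plate 2. Among all genes with a read, Cd68 ranked 151st of 16375 per kilobase in moLCs and 163rd of 15443 in eLCs.

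**Figure D1:**
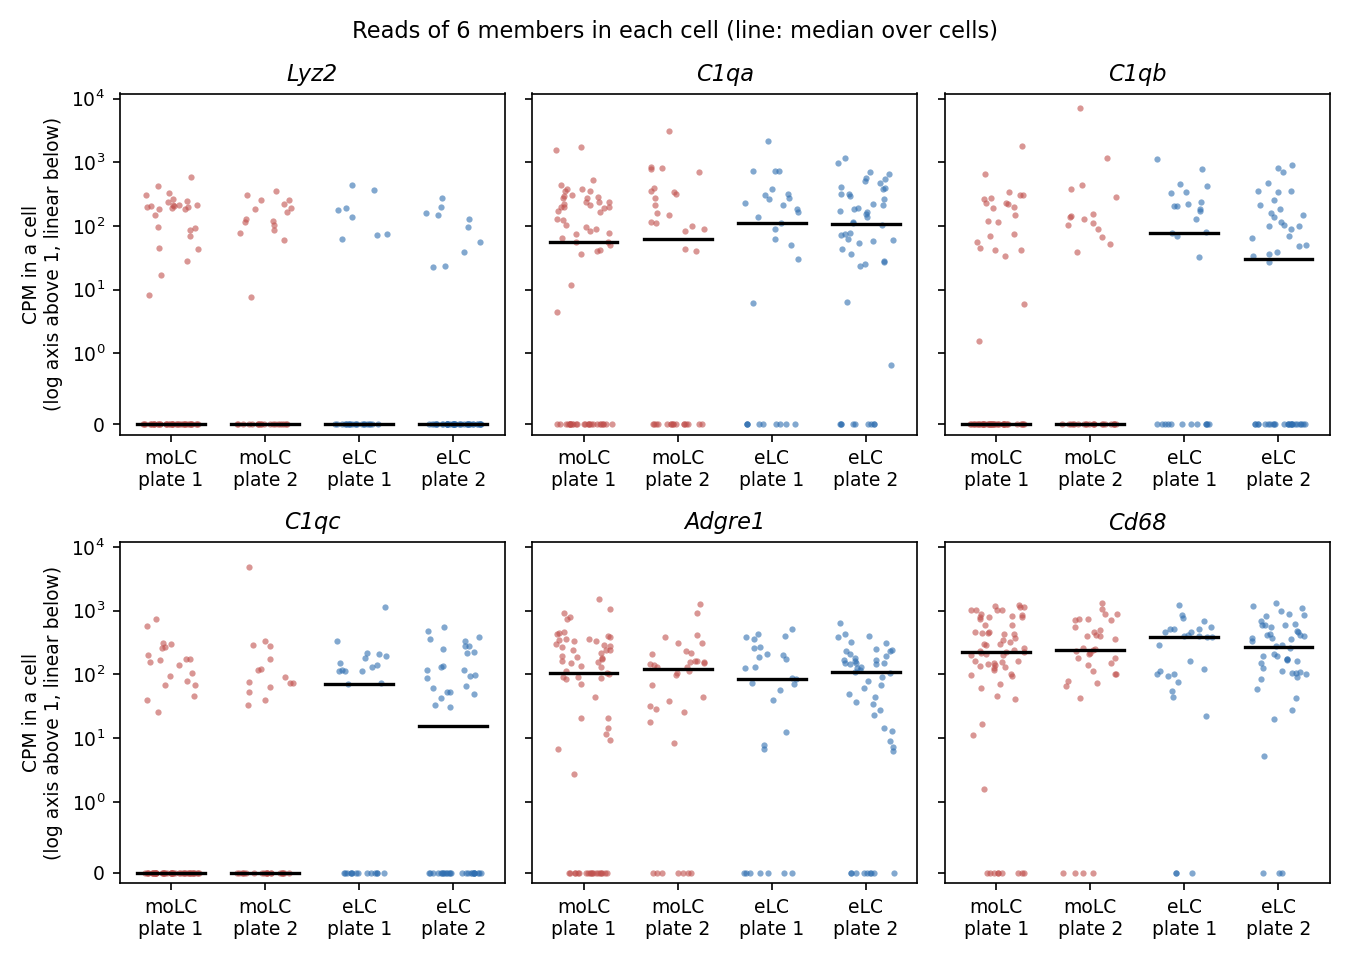
Level of 6 members in every cell, in CPM (logarithmic above 1, linear below), by origin and plate; each point is a cell and each line is the median over cells. Lyz2, C1qb and C1qc have medians of 0 in moLCs of either plate, and cells with a read lie mostly between 10 and 1000 CPM.

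Ly6c2 and Plac8 had no read in any moLC. Ly6c2 (ENSMUSG00000022584; GRCm38 chromosome 15, 75108158 to 75111970, minus strand) had 0 reads in moLCs and 1 read in 1 eLC. Plac8 (ENSMUSG00000029322; chromosome 5, 100553725 to 100572245, minus strand) had 0 reads in moLCs and 2 reads in 1 eLC. A count of 0 in this many cells allows a share of up to 2.91% of moLCs with a read (3 cells of the total), or 3.52% as the upper Clopper-Pearson limit used for the other shares, and 3 reads over all moLCs would be 0.00999 CPM. The label under which the 9 genes were brought together, genes that LCs retain, therefore does not describe these 2 members. Ly6c1, the near-identical neighbour of Ly6c2 that could share its reads, also had no read in any cell. With both origins at or under 3 reads, no fold is given for either gene.

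Lyz2 (ENSMUSG00000069516; chromosome 10, 117277331 to 117282321, minus strand) was read in more moLCs than eLCs. It ran from 0 to 577 CPM over moLCs and from 0 to 439 CPM over eLCs, with a median of 0 in each. Of the moLCs 43 had a read (41.7%, 32.1 to 51.9%), compared with 18 of the eLCs (22.8%, 14.1 to 33.6%), so the intervals overlapped at their edges. The share was higher in moLCs on both plates, with 40.3% against 27.6% on plate 1 and 44.4% against 20% on plate 2. With all cells thinned to a common depth of 2052512 reads, for which 7 moLCs and 12 eLCs were too shallow, 43.8% and 23.9% had a read.

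Lyz2 was either well read or not read at all. No cell had 1 to 9 reads of it, and the lowest cell with any had 28 reads. Among cells with a read the median moLC had 187 CPM and the median eLC 133 CPM, with quartiles of 89.2 to 228 and 64.4 to 188 CPM, so these cells overlapped widely between origins.

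The summed level of Lyz2, all reads of an origin over its total, was 75.98 CPM in moLCs (74.996 to 76.97) and 33.9 CPM in eLCs (33.1 to 34.7), giving a log2 ratio, moLCs over eLCs, of 1.16 (1.13 to 1.20). On plate 1 the sums were 78.2 and 52.7 CPM (log2 ratio 0.57), and on plate 2 they were 71.8 and 21.2 CPM (1.76). The moLC level was thus alike on the plates, and the eLC level was the one that moved. A single eLC of plate 1 held 1418 of the 7382 Lyz2 reads in eLCs, and without it the log2 ratio was 1.45 in all cells and 1.04 on plate 1. That cell also had 10605 reads of Cd207 and 4728 of Epcam, and none of the C1q genes. Without the 15 cells that had a dermal macrophage marker read, the log2 ratio of Lyz2 was 0.92 (0.34 on plate 1 and 1.52 on plate 2) and the shares were 38.3% of 94 moLCs and 23.3% of 73 eLCs.

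Lyz1 (ENSMUSG00000069515; chromosome 10, 117287797 to 117292868, minus strand) followed Lyz2 at a very low level. Its reads numbered 58 in moLCs and 18 in eLCs, or 0.193 and 0.0826 CPM, with a log2 ratio of 1.22 (0.44 to 2.08), 0.80 on plate 1 (-0.28 to 2.05, an interval that holds 0) and 1.67 on plate 2 (0.50 to 2.96). Of the 10 reads in the highest moLC and 5 in the highest eLC, the eLC moved the ratio most, to 1.67 without it. All 36 cells with a Lyz1 read (26 moLCs and 10 eLCs) also had Lyz2, at 174 reads or more, and no cell had Lyz1 alone. In cells with both, the median was 590 Lyz2 reads, against 170 in cells with Lyz2 only. Lyz1 made up 0.254% of the reads of the pair in moLCs and 0.243% in eLCs.

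**Figure D2:**
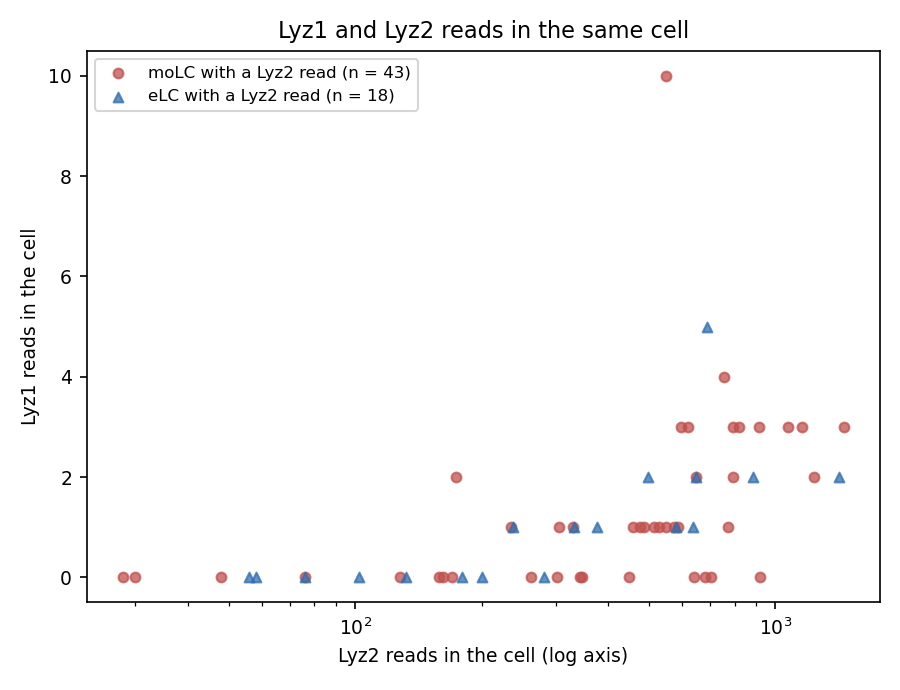
Reads of Lyz1 against reads of Lyz2 (logarithmic axis) in each of the 61 cells with a Lyz2 read, circles for moLCs and triangles for eLCs. Lyz1 reads appear only in cells with 174 or more Lyz2 reads and reach 10 in 1 moLC.

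The coding sequences of Lyz2 and Lyz1 show how closely such reads resemble each other. In the GENCODE M21 transcripts both have 444 coding bases, of which 22 differ (95.05% identity), and 44 of 370 windows of 75 bases, the read length, are the same in both. Over the whole transcripts, 5.96% of the 75-base stretches of Lyz2 also occur in Lyz1. The following window of exon 3 is identical (coding bases 302 to 376; chr10:117278647-117278721 in Lyz2 and chr10:117289123-117289197 in Lyz1, minus strand of GRCm38), so a read from it fits either gene.
Lyz2 and Lyz1: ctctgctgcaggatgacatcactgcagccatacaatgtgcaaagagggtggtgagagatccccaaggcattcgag
The window of exon 1 with the most differences holds 12 of them, shown in capitals (coding bases 58 to 132; chr10:117282111-117282185 and chr10:117292707-117292781, minus strand).
Lyz2: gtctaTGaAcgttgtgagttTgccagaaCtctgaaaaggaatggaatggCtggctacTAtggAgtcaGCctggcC
Lyz1: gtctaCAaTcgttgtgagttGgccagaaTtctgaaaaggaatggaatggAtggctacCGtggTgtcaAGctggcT
The counts also differed in parity. Values above 0 were even in 82.8% of all cases in the table, but in 59.02% for Lyz2 and 27.8% for Lyz1, against 97.5% for C1qa. Counting both ends of a fragment for 1 gene gives an even value. In cells with both lysozymes the Lyz2 and Lyz1 counts were both odd or both even, such as 1453 and 3 or 550 and 10. The only exceptions were the cells with 1154 and 3 and with 794 and 3. In cells with Lyz2 but no Lyz1 the Lyz2 count was even, except for 919 in a moLC of plate 2. How the authors' counting treated reads that fit both lysozymes is not given in the sources used here, so the Lyz1 counts are uncertain, and whether they are reads of Lyz2 was not tested. Lyz1 is still counted as a member of its own in the medians and counts below.

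The 3 C1q genes lie side by side within chromosome 4, all on the minus strand: C1qb (ENSMUSG00000036905; 136880129 to 136886187), C1qc (ENSMUSG00000036896; 136889804 to 136893065) and C1qa (ENSMUSG00000036887; 136895917 to 136898803). All were read in a smaller share of moLCs than of eLCs, on both plates. C1qa was read in 61 moLCs (59.2%, 49.1 to 68.8%) and 61 eLCs (77.2%, 66.4 to 85.9%). C1qb was read in 39 moLCs (37.9%, 28.5 to 47.96%) and 43 eLCs (54.4%, 42.8 to 65.7%). C1qc was read in 35 moLCs (33.98%, 24.9 to 43.97%) and 40 eLCs (50.6%, 39.1 to 62.1%). The intervals of the origins overlapped at their edges for all 3 genes. The difference lay between 16.6 and 17.99 percentage points for each, beside a median difference, moLCs minus eLCs, of -4.12 points over the 6522 genes read in 25% or more of the cells of either origin. Of those genes, 43.2% also had the lower share in moLCs on both plates.

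The C1q shares differed in size by plate. For C1qa a read was found in 61.2% of moLCs against 68.97% of eLCs on plate 1 and in 55.6% and 82% on plate 2. C1qb was read in 35.8% and 58.6% on plate 1 and in 41.7% and 52% on plate 2. C1qc was read in 29.9% and 51.7% on plate 1 and in 41.7% and 50% on plate 2. So the difference was 22.8 points for C1qb and 21.9 for C1qc on plate 1 but 10.3 and 8.33 on plate 2, and for C1qa it was 7.77 and 26.4 points. After thinning to equal depth the shares were 60.4% and 76.1% for C1qa, 38.5% and 55.2% for C1qb, and 34.4% and 47.8% for C1qc.

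**Figure D3:**
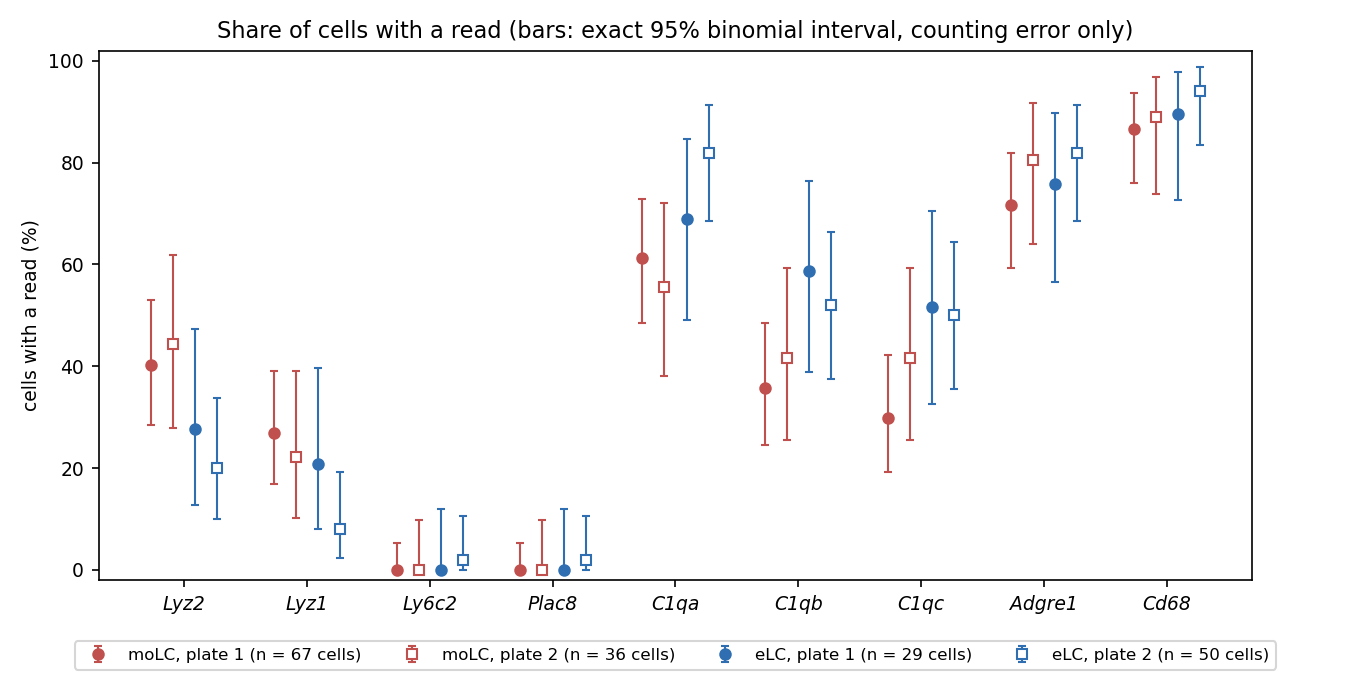
Percent of cells with a read of each member, by origin and plate, with exact 95% binomial intervals for counting error. The 3 C1q genes lie lower in moLCs than in eLCs of the same plate and Lyz2 lies higher, with intervals that overlap within each plate, and Ly6c2 and Plac8 lie at or near 0.

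Summed levels of C1q did not follow the shares, and a few cells held many of the reads. C1qa summed to 190 CPM over moLCs and to 233 CPM over eLCs (log2 ratio -0.30, -0.31 to -0.28), C1qb to 153 and 150 CPM (0.03, 0.01 to 0.05), and C1qc to 99.2 and 99.3 CPM (-0.0016, -0.03 to 0.02). On plate 1 the log2 ratios were -0.84 for C1qa, -1.08 for C1qb and -1.07 for C1qc, and on plate 2 they were 0.32, 1.15 and 1.10. The direction was thus opposite on the plates for all 3 genes. With each cell left out in turn, the log2 ratio of C1qb in all cells ran from -0.71 to 0.25, far beyond its counting interval. The median cell had 56.7 CPM of C1qa in moLCs and 111 CPM in eLCs, 0 and 35.8 CPM of C1qb, and 0 and 31.02 CPM of C1qc.

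A single moLC of plate 2 stood apart. It held 18564 of the 45868 C1qb reads in moLCs (40.5%), 12317 of the C1qc reads (41.4%) and 7838 of the C1qa reads (13.8%), which is 7202, 4778 and 3041 CPM. It also had the most genes with a read of all 182 cells (7212), 3481 CPM of Apoe, 96.99 CPM of Pf4 and 22.5 CPM of Mrc1, and only 467 CPM of Cd207, the third lowest of the moLCs, beside 1303 CPM of Epcam. Whether this well held more than 1 cell was not tested. Without it the log2 ratios were -0.50 for C1qa, -0.71 for C1qb and -0.76 for C1qc in all cells, and -0.17, -0.37 and -0.57 on plate 2. Hence all 3 ratios were below 0 on both plates once that cell was left out. It had 2.65% of its reads on mitochondrial genes, and a limit of 2.5%, which left out 2 moLCs, this one included, and 7 eLCs, gave -0.52, -0.75 and -0.71 in all cells.

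Among eLCs the most C1q reads came from a cell of plate 1 with 9694 reads of C1qa, 5144 of C1qb and 5122 of C1qc, which was 19.1% of all C1qa reads in eLCs. Apoe reached 768 CPM in that cell, and Pf4, Mrc1 and Adgre1 had no read. Without that eLC alone the log2 ratio of C1qa was -0.02 in all cells and -0.21 on plate 1. With the highest cell of each origin left out, a choice made after these values were seen, the log2 ratios were -0.22, -0.49 and -0.40 for C1qa, C1qb and C1qc, and all were below 0 within each plate. Without the 15 cells with a dermal macrophage marker read they were -0.55, -0.99 and -0.98, with -0.04, -0.22 and -0.47 on plate 2. TMM scaling raised every ratio by 0.10 on the log2 scale, and with all cells kept it placed C1qc above 0.

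**Figure D4:**
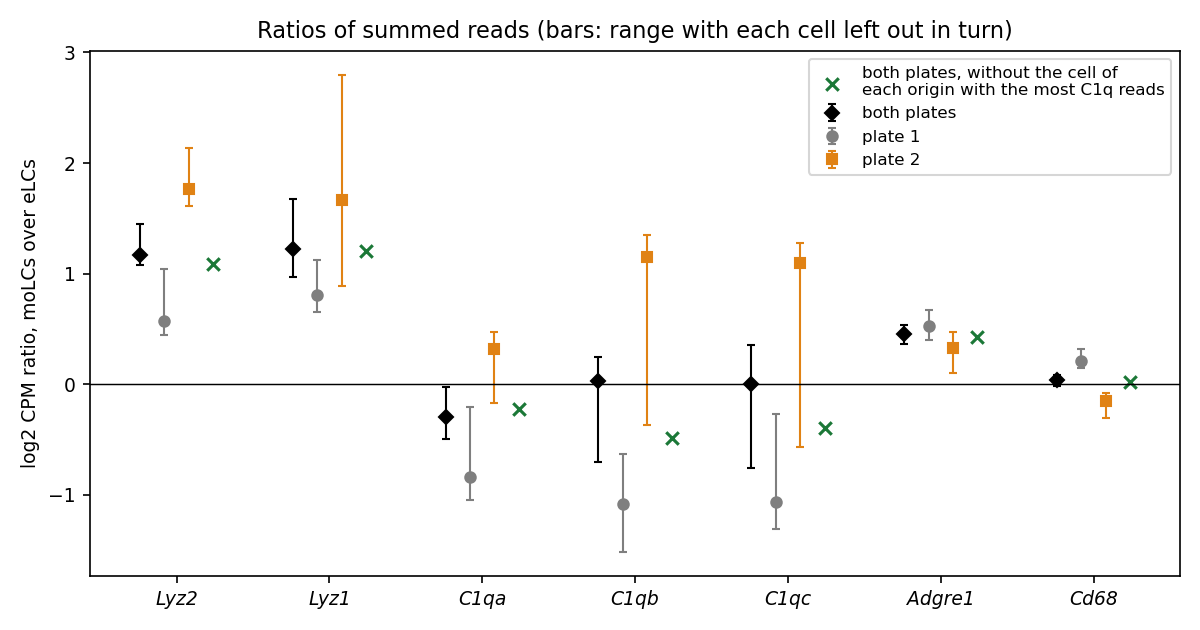
Log2 ratio of summed CPM, moLCs over eLCs, for the 7 members with enough reads, in both plates together and within each plate; bars span the values with each cell left out in turn and crosses leave out the cell of each origin with the most C1q reads. Lyz2 stays above 0 throughout, the C1q genes have opposite signs on the plates, and the bars on plate 2 span -0.37 to 1.35 for C1qb and -0.57 to 1.28 for C1qc.

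Cells with a C1q read held about as much of it in either origin. Among them the median was 199 CPM of C1qa in moLCs and 182 CPM in eLCs, 144 and 172 CPM of C1qb, and 122 and 129 CPM of C1qc. The quartiles of C1qa were 88.2 to 340 CPM in moLCs and 62.8 to 374 CPM in eLCs, so the spread among cells with a read was far wider than the difference between origins.

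Reads of the C1q genes occurred together in the same cells. The whole trio was found in 21 moLCs (20.4%, 13.1 to 29.5%) but in 31 eLCs (39.2%, 28.4 to 50.9%). No C1q gene was read in 33 moLCs and 13 eLCs. On plate 1 all 3 were read in 14.9% of moLCs and 44.8% of eLCs, whose intervals (7.40 to 25.7% and 26.4 to 64.3%) did not overlap, and on plate 2 in 30.6% and 36% (16.3 to 48.1% and 22.9 to 50.8%), which did. No such share is given for other gene trios, so this difference is not shown to be particular to C1q. Of single genes tested, 43.2% had the lower share in moLCs on both plates, and the median moLC had fewer genes with a read (4026 against 4488). After thinning the pooled shares were 20.8% and 38.8%. The cells with all 3 genes held 70.6% of the C1q reads of moLCs and 84.5% of those of eLCs.

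Having one C1q gene read went with having another. In eLCs, all 40 cells with C1qc also had C1qa, and of the 18 eLCs without C1qa none had C1qc. In moLCs, 28 of 35 cells with C1qc had C1qa (80%), against 33 of 68 without C1qc (48.5%). C1qb was read in 71.4% of the moLCs with C1qc and 20.6% of those without, and in 77.5% and 30.8% of eLCs. Over the 6 ordered pairs of C1q genes, the share of cells with the other gene was higher by 29.2 to 50.8 percentage points in moLCs and by 24.5 to 65.6 points in eLCs. The difference was above 0 for all 6 within each plate, with a lowest value of 13.5 points. Depth was not the same on both sides of these pairs. The widest gaps were for C1qa in moLCs, with a median of 3086651 reads in cells with it and 2683043 without, and for C1qc in eLCs, with 2579170 and 2908776, in the opposite direction. Cells with all 3 genes also had more genes with a read than cells with none, with medians of 4225 and 3787 in moLCs and 4654 and 3951 in eLCs, and the part of depth in the pairs was not tested.

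Most other pairs of members differed less over both plates. Over the 24 other ordered pairs of Lyz2, C1qa, C1qb, C1qc, Adgre1 and Cd68, the difference ran from -2.48 to 30.2 points in moLCs and from -17.4 to 14.2 points in eLCs, with medians of 9.59 and 2.71. The highest of these, Lyz2 in moLCs with and without Cd68, rests on 13 moLCs without Cd68 and exceeds the lowest C1q pair. Within plates these pairs ran from -7.09 to 33.7 points (plate 1) and from -1.48 to 46.9 points (plate 2) in moLCs, and from -44.8 to 39.7 and from -53.2 to 33.9 points in eLCs. The values of 46.9 and -53.2 had Cd68 as the first gene, which only 4 moLCs and 3 eLCs of that plate lacked. Lyz2 and C1qa hardly differed by this measure, with C1qa in 60.5% of moLCs that had Lyz2 and 58.3% of those without, and in 77.8% and 77.05% of eLCs. Lyz2 and C1qb showed a positive difference in moLCs (48.8% with Lyz2, 30% without), and in eLCs the shares were 44.4% and 57.4%. In both origins the intervals overlapped.

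**Figure D5:**
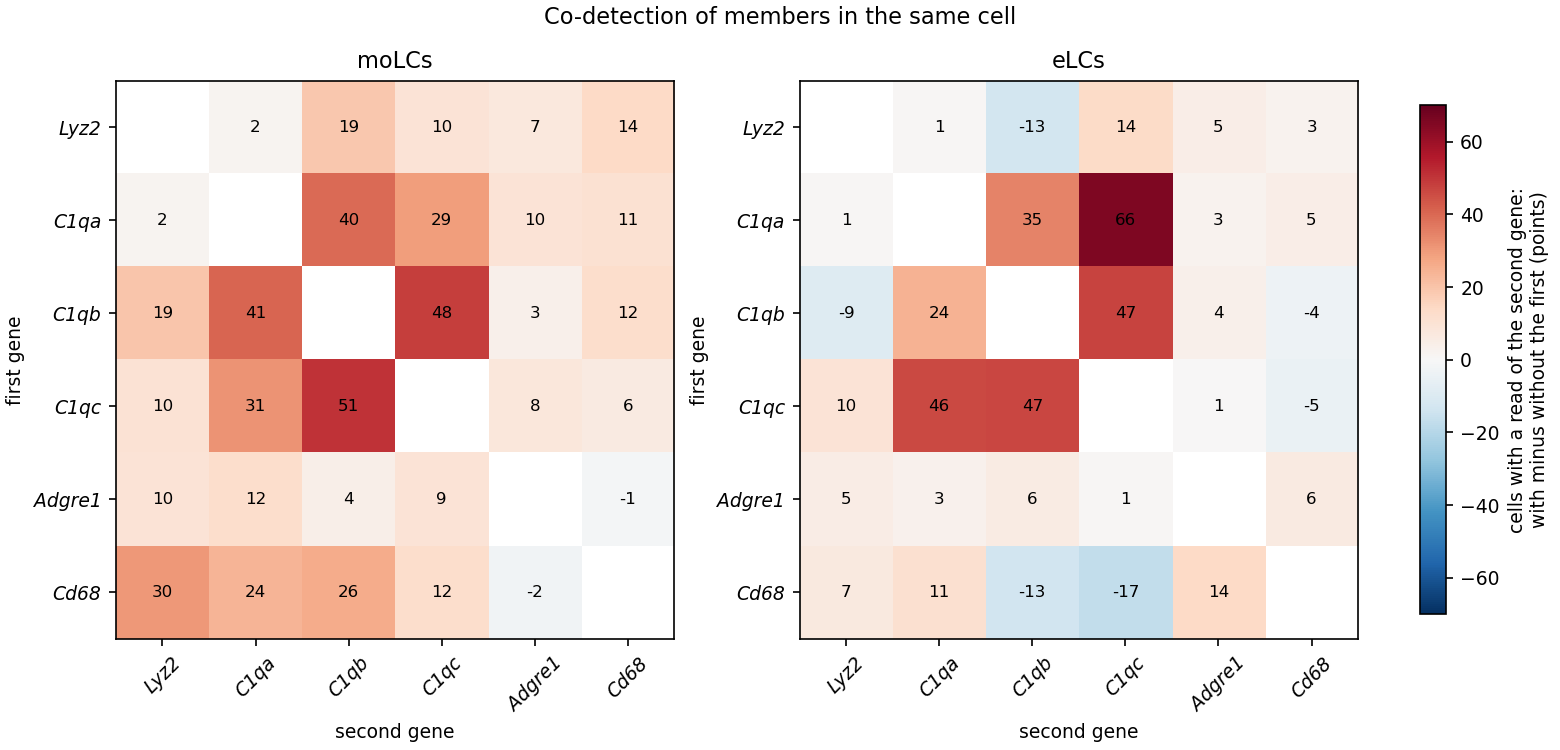
Percentage points by which cells with a read of the first gene (row) more often had a read of the second gene (column) than cells without the first, in moLCs and eLCs of both plates. The block of C1qa, C1qb and C1qc holds 29.2 to 50.8 points in moLCs and 24.5 to 65.6 in eLCs, and the highest value outside it is 30.2 in moLCs (Cd68 with Lyz2) and 14.2 in eLCs.

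Correlations of CPM were taken over all cells, those at 0 included, so they are not independent of the co-detection above. C1qb was read in 82 and C1qc in 75 of the 182 cells. The Spearman correlation of CPM over cells, taken within each origin and plate and averaged, was 0.57 for C1qa with C1qc, 0.54 for C1qa with C1qb and 0.53 for C1qb with C1qc. Among the 5987 genes compared, the 2 most like any C1q gene were the other 2 C1q genes, and no further gene reached 0.4. For Lyz2, Adgre1 and Cd68 no gene reached 0.4. Among these members and the C1q genes, the correlations of all pairs other than those within C1q lay between -0.02 and 0.10. These are descriptions over 182 cells that share a plate, a protocol and their depth.

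The promoters of C1qb and C1qc are shown since the genes were read in the same cells. They run from 250 bases before to 50 after the start (RefSeq, GRCm38.p6). Capitals mark GAGGAA on either strand, 1 form of the motif of PU.1, the myeloid factor encoded by Spi1. Other forms of it were not searched.
C1qb, chr4:136886151-136886450, minus strand: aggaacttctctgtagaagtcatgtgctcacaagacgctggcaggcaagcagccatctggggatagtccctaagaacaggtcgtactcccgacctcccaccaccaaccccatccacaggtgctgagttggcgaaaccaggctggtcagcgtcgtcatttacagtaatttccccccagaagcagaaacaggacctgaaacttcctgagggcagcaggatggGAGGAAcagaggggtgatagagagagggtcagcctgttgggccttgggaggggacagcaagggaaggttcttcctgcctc
C1qc, chr4:136892865-136893164, minus strand: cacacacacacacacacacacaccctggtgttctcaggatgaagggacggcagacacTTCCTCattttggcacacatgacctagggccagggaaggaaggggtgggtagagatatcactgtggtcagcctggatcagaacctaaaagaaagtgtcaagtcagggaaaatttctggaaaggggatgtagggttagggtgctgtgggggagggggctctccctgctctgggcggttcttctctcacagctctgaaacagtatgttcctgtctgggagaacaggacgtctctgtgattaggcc
The PU.1 letters begin 30 bases before the start of C1qb and 193 bases before that of C1qc, there on the opposite strand. Of the 9 members, 7 were in the table (not C1qa and Adgre1), and 5 of these (Ly6c2, Plac8, C1qb, C1qc and Cd68) held the letters at 1 start or more. Each of the 5 held them at its first start. Over all genes, with 1 promoter taken for each, 28.3% of 27025 promoters held the letters. Counted by entry, as some genes have 2 starts, 6 of 9 entries held them. That count is in another unit, and the 2 entries of Ly6c2 overlap and share their matches. The C/EBP motif TTGCGNAA, in 0.807% of the 27025 promoters, was in none of the 7. Such matches are letters in a window and show no binding.

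The promoters of Lyz2 and Lyz1, the neighbours with like coding sequence and very unequal reads, were aligned over the same span. They were identical in 249 of 302 aligned columns (82.5%), with 49 substitutions and 4 columns in gaps, and bases that differ are in capitals.
Lyz2, chr10:117282223-117282522, minus strand: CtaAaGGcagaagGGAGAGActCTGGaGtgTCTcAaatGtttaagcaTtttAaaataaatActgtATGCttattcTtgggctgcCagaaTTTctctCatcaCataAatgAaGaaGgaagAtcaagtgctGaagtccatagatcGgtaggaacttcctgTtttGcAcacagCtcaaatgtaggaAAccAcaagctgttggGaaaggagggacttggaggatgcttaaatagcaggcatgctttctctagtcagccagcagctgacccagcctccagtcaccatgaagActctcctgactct
Lyz1, chr10:117292819-117293118, minus strand: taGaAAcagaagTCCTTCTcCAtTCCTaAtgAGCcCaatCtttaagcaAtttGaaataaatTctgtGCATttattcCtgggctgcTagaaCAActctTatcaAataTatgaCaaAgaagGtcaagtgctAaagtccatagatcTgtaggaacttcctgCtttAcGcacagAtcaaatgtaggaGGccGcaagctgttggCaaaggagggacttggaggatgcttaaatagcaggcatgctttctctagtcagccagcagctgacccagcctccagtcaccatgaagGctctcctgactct

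Adgre1 (ENSMUSG00000004730; chromosome 17, 57358691 to 57483527, plus strand) was read in most cells of either origin. It ran from 0 to 1526 CPM over moLCs with a median of 113, and from 0 to 648 CPM over eLCs with a median of 92.6. Of the moLCs 77 had a read (74.8%, 65.2 to 82.8%), and of the eLCs 63 (79.7%, 69.2 to 87.96%). The share was thus slightly lower in moLCs, while the summed level was higher, at 189 CPM (187 to 190) against 138 CPM (136 to 140). The log2 ratio was 0.45 in all cells, 0.53 on plate 1 and 0.33 on plate 2, and it lay between 0.37 and 0.53 when each cell was left out in turn. On plate 2 a single moLC moved it to 0.10 when left out. The 5 highest moLCs held 27.04% of the moLC reads, and 7 moLCs lay above the highest eLC, while all others lay within the range of the eLCs.

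Cd68 (ENSMUSG00000018774; chromosome 11, 69664213 to 69666153, minus strand) was the most widely read member. It ran from 0 to 1314 CPM over moLCs with a median of 228, and from 0 to 1324 CPM over eLCs with a median of 285. Of the moLCs 90 had a read (87.4%, 79.4 to 93.1%), and of the eLCs 73 (92.4%, 84.2 to 97.2%). Summed over cells it stood at 367 CPM for moLCs against 359 CPM for eLCs (log2 ratio 0.03), and the ratio was 0.21 on plate 1 and -0.16 on plate 2. Hence its direction was not the same on the plates and its pooled ratio was near 0.

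Each cell held several members. A moLC had a read of 3.60 ± 1.72 members (SD over cells) and an eLC of 3.92 ± 1.42, with a median of 4 in each. Of moLCs, 3 had none of the 9 and 5 had 7, and of eLCs, 1 had none and 1 had 8. For moLCs 52.4% held 4 or more members (42.4 to 62.4%), and for eLCs the share was 63.3% (51.7 to 73.9%), with overlapping intervals. With at least 10 reads required of a member, which left Lyz1 in 1 moLC, the shares were 45.6% and 55.7%. The spread among cells of an origin was larger than the difference between origins.

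Against the whole table, no member passed the rule for a large difference between origins. A gene had to be read in 25% or more of the moLCs or of the eLCs, as 7 members were, and to differ 2-fold or more, one way, in all cells and on each plate. Of 6522 genes so read, 53 (0.813%) passed with the higher level in moLCs and 79 (1.21%) with the higher level in eLCs, which became 71 and 62 with TMM scaling. Lyz2 missed the rule on plate 1 (0.57) and passed it when the eLC with 1418 Lyz2 reads was left out, as did Lyz1 (1.11 on plate 1). The same rule for a share of cells that differed by at least 20 percentage points on both plates was passed by 8 genes (0.123%) towards moLCs and 65 (0.997%) towards eLCs, and by 0 of the 7 members. Between plates, with 2-fold or more in 1 direction in both origins, 38 genes (0.583%) were higher on plate 1 and 51 (0.782%) on plate 2, again with 0 of the 7 members. The median log2 ratio of the 7 was 0.03, beside -0.10 for all genes tested.

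Other genes of the same pathways were taken from 3 lists. Of 25 blood monocyte genes, 7 had no read in any cell and 7 were read widely enough, and of these 1, Ifitm3, passed the rule. Ifitm3, an interferon-induced membrane protein that restricts viruses, had a read in 83.5% of moLCs but in 49.4% of eLCs, at 2.74 and 1.12 CPM, with log2 ratios of 1.29 in all cells, 1.35 on plate 1 and 1.76 on plate 2. Of the 30 tissue macrophage genes, 9 had no read, 10 were read widely enough, and 0 passed the rule. Timd4, a receptor for phosphatidylserine on resident macrophages, is named after its values were seen, as the widest difference of the 10. Its share of cells with a read was 20.4% for moLCs against 75.9% for eLCs, at 114 and 469 CPM, and its log2 ratio of -2.03 was -3.16 on plate 1 and -0.84 on plate 2, short of the rule there. The 3 highest genes of the list were Tyrobp, an adaptor of myeloid receptors (1212 CPM in moLCs and 1456 in eLCs), Csf1r, the receptor that LCs need for survival (858 and 1179), and Spi1 (710 and 654). The median log2 ratios of the genes read widely enough were 0.15 for the monocyte list and -0.04 for the macrophage list. The monocyte list stood at 0.15 on plate 1 and -0.11 on plate 2, so its direction was not the same on the plates. The macrophage list stood at -0.19 and -0.07.

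Of 31 complement genes other than C1q, 14 had no read, 8 were read widely enough and 0 passed the rule, with a median log2 ratio of -0.06. That median was -0.24 on plate 1 and 0.0039 on plate 2. C1r and C1s, the proteases that C1q activates, were nearly unread, and are named after their values were seen. C1ra had 46 reads in 1 moLC, and C1rb, C1s1 and C1s2 had none. The highest were Cfp, which encodes properdin of the alternative pathway (1063 CPM in moLCs and 1761 in eLCs), the chaperone Calr (770 and 766) and the integrin chain Itgb2 (141 and 145).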

How the data were processed

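Single-cell Smart-seq libraries of 185 epidermal LCs were analysed from the table of gene counts that the authors deposited, made with STAR on mm10 per the submitters' processing notes, while the counting tool and its handling of reads that fit 2 genes are not given in the sources used here. Values were raw counts. A few deposited columns held expected counts, 9 values in all lying midway between whole numbers, and these were rounded. The members and lists were chosen with earlier results of these data known. Cells with over 5% of reads on mt- genes were left out (3 moLCs). Reads were summed by origin and plate and scaled to CPM, and log2 ratios were given with binomial intervals, sums with exact Poisson intervals and shares with Clopper-Pearson intervals (95%, counting error only, since reads have no molecular identifiers). A group at 0 was set to 3 reads. Without animal labels an origin counts as 1 sample, hence there were no tests. No doublet caller was run. Named genes were the 9 members, list genes past the size rule or otherwise the 3 highest of a list, and up to 3 genes with a rank correlation of at least 0.4. Coordinates and lengths came from GENCODE M21 (GRCm38), in which 45495 of 45661 names were found, and promoters from RefSeq. Alternatives were each plate, other cell filters, thinning, equal weight per cell, TMM factors (edgeR 4.0.16, R 4.3.3), leaving out single cells and other thresholds. Python 3.11.15, pandas 2.3.3, scipy 1.17.1 and Biopython 1.88 were used, and the rules were tested on simulated data. Values of some list genes are not reported here.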

Additional observations from a re-analysis of the deposited data

Results flagged for a closer look

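The 3 cells left out by the mitochondrial filter, all moLCs of plate 2 with 9.97%, 13.96% and 29.3% of reads on mitochondrial genes, enter no comparison above. Of the 9 members, C1qa alone had reads there, 32 reads in 1 of the 3 cells (18.5 CPM over the 3), which is above the 3 reads used as a floor. Cd68 and Adgre1, read in most kept cells, had no read in any of the 3.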

How the results depend on the processing

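The count of members past the rule for a large difference between origins was 0 with other cell filters, equal weight for each cell, TMM factors, thinning and other thresholds on the share of cells, and it was 2 on plate 1 alone (C1qb and C1qc, lower in moLCs, as were 6.82% of all genes tested), 3 on plate 2 alone (Lyz2, C1qb and C1qc, higher in moLCs, as were 4.86%), 1 at 1.5-fold (Lyz1, higher in moLCs, as were 2.76%) and 2 without 1 eLC (Lyz2 and Lyz1). Leaving out 1 of 182 cells changed it for 3 eLCs of plate 1. The median log2 ratio of the 7 members, 0.03, was 0.21 on plate 1, 1.10 on plate 2, 0.066 with at most 2.5% of mitochondrial reads, 0.19 with equal weight for each cell, 0.14 with TMM factors, 0.17 after thinning and 0.36 without the most influential cell. It was 0.019 without the cell of each origin with the most C1q reads and -0.030 without cells that had a dermal macrophage marker read, both chosen after seeing the data. The share of moLCs with all 3 C1q genes was 30.6% on plate 2. Of 90 shares of cells recomputed under the alternatives, 82 stayed inside their interval. The ratios of Lyz2, Lyz1 and Adgre1 kept their sign in all 11 alternatives and those of C1qa, C1qb, C1qc and Cd68 kept it in 10, 6, 7 and 9. These 11 are not independent of each other or of the main result. A minimum of 1000 genes per cell left every ratio unchanged. Leaving out the most influential cell repeats an end of the leave-one-out range. Depth limits what a cell without a read shows, and with 1 sample per origin the spread between animals is unknown. No paired analysis was possible because no result comes from a test and no animal is named.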
